A study of Mus musculus with 9 samples.

Results

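The cytosolic ribosomal protein genes were followed as one module in the right ventricle of 9 mice. Members were taken by name: every gene whose symbol in the platform annotation is Rpl or Rps followed by a number, with or without a closing a, x or l, together with Rplp0, Rplp1 and Rplp2, and which had a probe set annotated to that gene alone. Where a gene had several such probe sets, the one with the highest mean over the arrays stood for it. This gave 71 members among 18820 measured genes, 46 of the large (60S) subunit and 25 of the small (40S) subunit. Rpl32, Rpl37a and Rps16 had only probe sets shared with other genes and were not followed. The rule used names and overall probe set levels, and no difference between groups. By RefSeq, Rps4l is a transcribed pseudogene and not a protein-coding gene.

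Female C57BL/6 mice, obtained at 8 weeks of age, formed 3 groups of 3 arrays each. MCT + NI mice received monocrotaline (MCT), a plant toxin that injures the lung vessels and loads the right ventricle, together with a nutritional intervention (NI), a diet of equal energy enriched in fish oil, protein, leucine and oligosaccharides. MCT mice received monocrotaline on the standard AIN-93M diet, and sham mice received saline on that same diet. Monocrotaline was injected under the skin at 600 mg/kg once a week for 8 weeks from an age of 10 weeks, and no mouse carried a genetic alteration. No group received the intervention without monocrotaline. Arrays came from mice that the study had matched for disease severity within a larger cohort, so the 3 mice of a group are a selection from it. Each array holds the RNA of a single mouse, numbered here as in the labels (MCT + NI 615, 617 and 619, MCT 640, 641 and 644, and sham 620, 624 and 625).

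A ribosome is built from ribosomal RNA and a fixed set of proteins, most of them present once per particle, and the genes of these proteins are usually expressed as one tight unit. Their mRNAs begin with a C followed by a short run of pyrimidines, the 5′ terminal oligopyrimidine (TOP) motif, through which mTOR complex 1 controls their translation without a need to alter their amount. A few members have paralogs that can take their place in certain tissues. Rpl3l replaces Rpl3 in heart and skeletal muscle, Rpl10l and Rpl39l are known mainly from the testis, and Rps27l, a near copy of Rps27, is known as a transcriptional target of p53.

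All levels are log2 values after robust multi-array averaging (RMA), in which a difference of 1 is a doubling of signal. Array medians over all rows of the deposited data lay between 4.77 and 4.79. Over the 18820 genes they ran from 5.36 in sham mouse 620 to 5.46 in MCT + NI mouse 615. Where arrays are centred below, these medians over genes were used. Levels of different probe sets cannot be set against each other, so only differences of one probe set between mice are read. The tissue carried its own markers: 13 ventricular cardiomyocyte genes averaged 10.8 in every MCT + NI mouse, between 10.7 and 10.8 in MCT mice and 10.7 in sham mice. Atrial markers varied widely between mice. The mean of 10 atrial markers ran from 6.11 to 8.59 in MCT + NI mice, from 6.06 to 9.80 in MCT mice and from 9.41 to 10.1 in sham mice, the sham mice and MCT mouse 644 having more atrial transcript than the other 5 mice. The endothelial, fibroblast and smooth muscle lists were higher after monocrotaline, as given beside the result they touch. Comparisons were made with limma, and adjusted p-values are Benjamini-Hochberg values over all 18820 genes. Each group enters more than one comparison, so the 3 sets of results are not independent.

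After monocrotaline the module as a whole differed little from its level in sham mice. In MCT against sham, the question being which genes the toxin and the load it brings alter, 1 of 71 members, Rps27l, passed an adjusted p under 0.05 as higher, against 6.26% of all genes (4.65% higher and 1.61% lower). Without adjustment, 4 members were higher (Rps27l, Rpl39, Rpl10a and Rps15a) and 0 lower at p under 0.05, where 10.6% of all genes were higher and 9.14% lower. The median log2 difference of the members was 0.02, beside -0.02 over all genes. Of the 71 members, 48 had a positive and 23 a negative difference, but when arrays were centred on their median the member median was -0.04, so no direction is read from it.

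The measured differences and spreads of the members were narrow. In 64 of 71 members (90.1%) the log2 difference between MCT and sham mice lay within 0.1 of 0, as in 51.2% of all genes and in 56% of the 868 genes whose level was at least the lower quartile of the members' levels. The 95% interval lay wholly within a 1.2-fold change either way in 64 of 71 members, and in 36.3% of all genes and 65.2% of those 868 genes. The median SD between mice of a group was 0.04 for the members, 0.06 for the 868 bright genes and 0.11 for all genes. Some probe sets held exactly the same value on several arrays. Rpl23 was 10.7835 in every sham mouse, and Rpl35 was 10.1452 and Rps24 10.6184 in every MCT + NI mouse, with an SD of 0 there. An SD of 0 also occurred among all genes. How far such ties narrow the spreads, differences and intervals was not tested. The 60S members had a median difference of 0.02 with 42 of 46 intervals inside 1.2-fold, and the 40S members a median of 0.02 with 22 of 25.

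**Figure D1:**
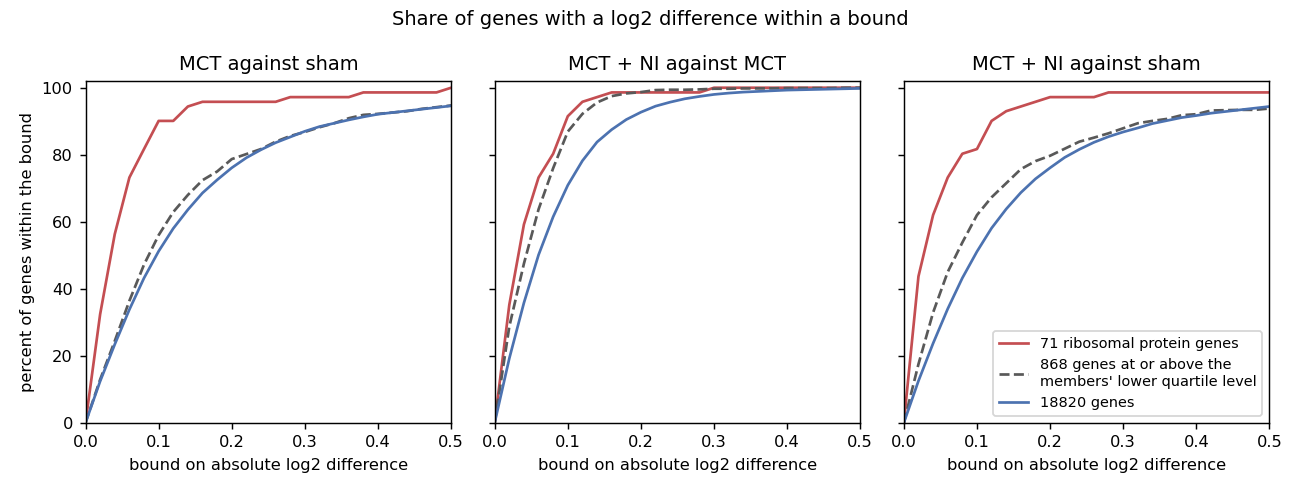
Share of genes (vertical axis, percent) whose absolute log2 difference is below the bound on the horizontal axis, 1 panel for each comparison. Red is the 71 ribosomal protein genes, dashed grey the 868 genes with a level of at least the members' lower quartile and blue all 18820 genes; at a bound of 0.1 the red line stands at 90.1% (left), 91.5% (middle) and 81.7% (right).

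The same could be seen mouse by mouse. Relative to each gene's sham mean, the median over the 71 members was 0.00, 0.00 and -0.01 in MCT + NI mice 615, 617 and 619, and 0.02, 0.01 and 0.02 in MCT mice 640, 641 and 644. In sham mice 620, 624 and 625 it was -0.02, 0.02 and 0.01. The sham mice overlapped both other groups in this median, while the MCT mice (0.0127 to 0.0245) lay above the MCT + NI mice (-0.0084 to 0.0048) by a narrow margin.

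**Figure D2:**
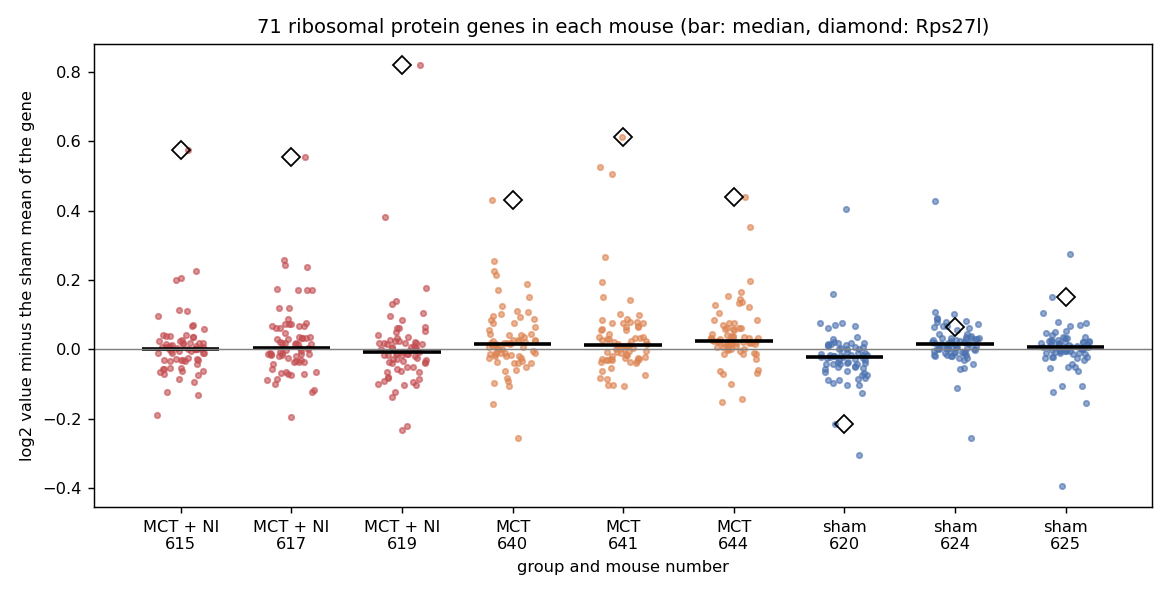
Each dot is 1 of the 71 ribosomal protein genes in 1 mouse, as its log2 value minus the sham mean of that gene (vertical axis), with the mouse and its group along the horizontal axis. Black bars are the medians, which lie between -0.02 and 0.02 in all 9 mice, and the diamonds are Rps27l. It stands above the members' median in every MCT + NI and MCT mouse, and also in sham mice 624 and 625 but not in sham mouse 620.

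Rps27l was the exception. Its log2 values were 7.95, 8.13 and 7.96 in MCT mice, against 7.30, 7.58 and 7.67 in sham mice. Every MCT mouse was above every sham mouse, and sham mouse 620 was the lowest of all. The log2 difference was 0.49 (95% interval 0.25 to 0.74), a 1.41-fold higher signal, with an adjusted p of 0.0285 in limma (n = 3 each). Since this is whole tissue, more cells that express the gene and more RNA per cell cannot be told apart.

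This call was a narrow one. It was lost on leaving out sham mouse 620 (adjusted p = 0.0637), sham mouse 624 (0.0663), MCT mouse 640 (0.072), MCT mouse 641 (0.102) or MCT mouse 644 (0.0574), while the difference stayed between 0.39 and 0.57. With the atrial marker mean as a covariate the difference was 0.44 and the adjusted p 0.191. MCT mouse 644 had an atrial marker mean of 9.80, within the range of the sham mice, and 7.96 for Rps27l. Atrial transcript and group largely go together in these mice, so 1 mouse cannot tell their parts in Rps27l apart. Other cell type markers moved with Rps27l. Smooth muscle and pericyte genes rose in 8 of 12, with list means of 8.58 to 8.77 in MCT mice and 8.21 to 8.26 in sham mice. Of 12 endothelial genes, 5 rose and 1 fell, with list means of 8.72 to 8.80 in MCT mice and 8.43 to 8.61 in sham mice. Fibroblast genes rose in 5 of 12 (list means 8.59 to 8.71 in MCT mice and 8.09 to 8.33 in sham mice), and 4 of 14 macrophage genes rose while 1 fell (6.82 to 7.23 in MCT mice and 6.64 to 6.88 in sham mice). Log2 signals have no zero, so none of these markers is listed at 0, and their part in the Rps27l result was not tested.

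Rps27, the parent gene of Rps27l and a zinc-binding protein of the 40S subunit, did not pass the test. It had 9.79, 9.79 and 9.84 in MCT mice, against 9.96, 9.94 and 9.79 in sham mice. The groups overlapped through sham mouse 625, and the difference of -0.09 (95% interval -0.21 to 0.02) had an adjusted p of 0.366. Subtracted within each mouse, Rps27l minus Rps27 was -1.84, -1.66 and -1.88 in MCT mice, against -2.66, -2.36 and -2.12 in sham mice. The offset itself compares unlike probes and has no meaning, so only its shift of 0.59 is read. All 3 MCT mice lay above all 3 sham mice (exact two-sided permutation p = 0.1, the smallest that 3 against 3 mice can give). The test of this pair was not planned. Most of the shift is the Rps27l difference of 0.49 already given, so the separation is no independent result.

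**Figure D3:**
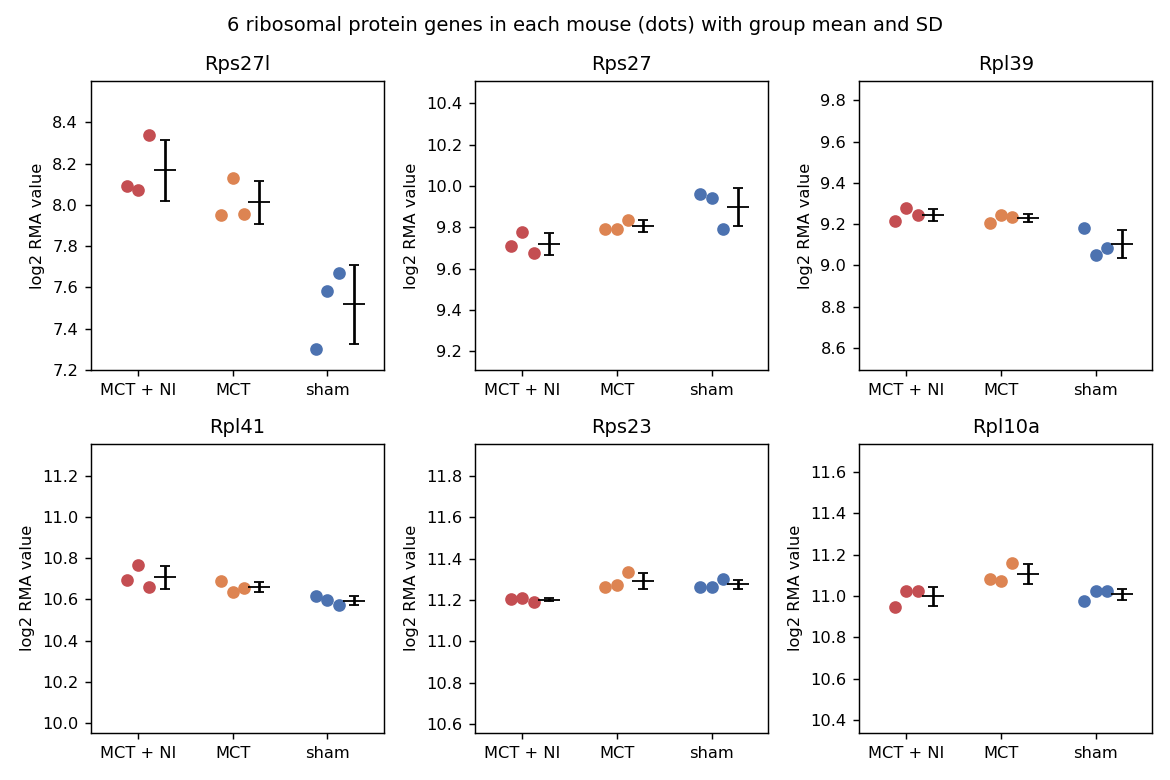
Log2 RMA value (vertical axis, every panel spanning the same range) of Rps27l, Rps27, Rpl39, Rpl41, Rps23 and Rpl10a in each mouse of the MCT + NI, MCT and sham groups, with the group mean and SD in black (n = 3). Rps27l separates the MCT + NI and MCT mice from the sham mice. Rpl39 and Rpl41 also do so, by smaller amounts, and the other 5 genes all stay within narrower bands than Rps27l.

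The start of the genes can be read beside these values. Of the 71 members, 57 had promoter windows in RefSeq (build GRCm38.p6), 69 windows in all of 300 bases, 250 before and 50 from the annotated start. The sequences of the members that the comparisons turn on, and of the muscle paralog Rpl3l, are shown from 60 bases before the start to 30 bases from it, 5′ to 3′ on the strand of the gene. Rpl3l has a second annotated start, which is not shown. Capitals mark CTTTC or CTTCC on the sense strand between 20 bases before and 30 bases from the start, which are pieces of pyrimidine runs, and CCGGAAG on either strand, the core to which ETS factors bind.
Rps27l, chr9:66946026-66946115, plus strand: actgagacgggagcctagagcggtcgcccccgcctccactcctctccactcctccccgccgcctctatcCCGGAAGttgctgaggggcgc
Rps27l, second start, chr9:66946353-66946442, plus strand: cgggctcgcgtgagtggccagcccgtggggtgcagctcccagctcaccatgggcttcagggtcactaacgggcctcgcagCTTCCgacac
Rps27, chr3:90213619-90213708, minus strand: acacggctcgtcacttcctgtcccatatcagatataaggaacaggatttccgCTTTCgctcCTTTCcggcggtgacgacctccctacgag
Rpl39, chrX:37085193-37085282, minus strand: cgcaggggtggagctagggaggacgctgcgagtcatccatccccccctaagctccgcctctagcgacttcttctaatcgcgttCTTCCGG
Rpl41, chr10:128549139-128549228, minus strand: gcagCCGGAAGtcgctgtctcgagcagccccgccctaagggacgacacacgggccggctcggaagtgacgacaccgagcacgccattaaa
Rps23, chr13:90923062-90923151, plus strand: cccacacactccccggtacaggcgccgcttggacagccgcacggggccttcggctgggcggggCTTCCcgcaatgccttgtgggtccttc
Rpl3l, chr17:24727766-24727855, plus strand: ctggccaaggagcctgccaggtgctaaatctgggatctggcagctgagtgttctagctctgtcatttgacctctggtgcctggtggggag

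CTTTC or CTTCC was present in 35 of 69 member windows (50.7%) and in 16.1% of the 32851 windows of all genes. CCGGAAG was present on either strand anywhere in the 300 bases in 25 of 69 member windows (36.2%) and in 8.86% of all windows. CTTCC also lies inside CTTCCGG, the reverse complement of CCGGAAG, so a single stretch can count for both, as it does in Rpl39. Rps27 carried CTTTC at 2 positions around its start, while the first start of Rps27l carried CCGGAAG and neither pyrimidine motif in the stretch searched. TATAAA on the sense strand between 40 and 16 bases before the start was found in 0 of 69 member windows and in 1.99% of all windows. These are matches of letters in one window and were not tested as binding sites.

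The other members that stood near the edge of the test in MCT against sham moved by small amounts. Rpl39, a short protein that lines the tunnel through which the new peptide leaves the ribosome, had 9.21, 9.25 and 9.24 in MCT mice, against 9.18, 9.05 and 9.08 in sham mice. The groups did not overlap and the log2 difference was 0.13 (95% interval 0.03 to 0.22), a 1.09-fold signal, with an adjusted p of 0.127. Rpl10a, which forms the mobile L1 stalk, had 11.08, 11.07 and 11.16 in MCT mice, against 10.98, 11.02 and 11.02 in sham mice, again without overlap. Its difference was 0.10 with an adjusted p of 0.171. Rps15a, a 40S protein named after its values were seen, had a difference of 0.09 with an adjusted p of 0.214. Altogether 10 members lay higher and 1 lower in MCT mice with no overlap between the groups, where 11.7% of all genes lay higher and 10.2% lower in this way. The member lower in every MCT mouse was Rps15, a 40S protein, with a difference of -0.06 and an adjusted p of 0.442.

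The largest differences after Rps27l came from probe sets with wide spread. Rpl14, a 60S protein, had 6.18, 6.50 and 6.32 in MCT mice, against 5.66, 6.40 and 5.85 in sham mice. Sham mouse 624 lay within the MCT range, and the difference of 0.36 (95% interval -0.02 to 0.75) had an adjusted p of 0.284. Rps4l had 6.70, 6.95 and 6.48 in MCT mice, against 6.43, 6.19 and 6.72 in sham mice. The groups overlapped, and the difference of 0.27 (95% interval -0.09 to 0.62) had an adjusted p of 0.403. The other probe set of Rps4l gave 0.10. At the other end stood Rps27, then Rpl26, a 60S protein, at -0.07 (adjusted p = 0.651) and Rps15. In 7 members, namely Rpl10l, Rpl14, Rpl32l, Rpl35a, Rps19, Rps27l and Rps4l, the interval reached beyond 1.2-fold.

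**Figure D4:**
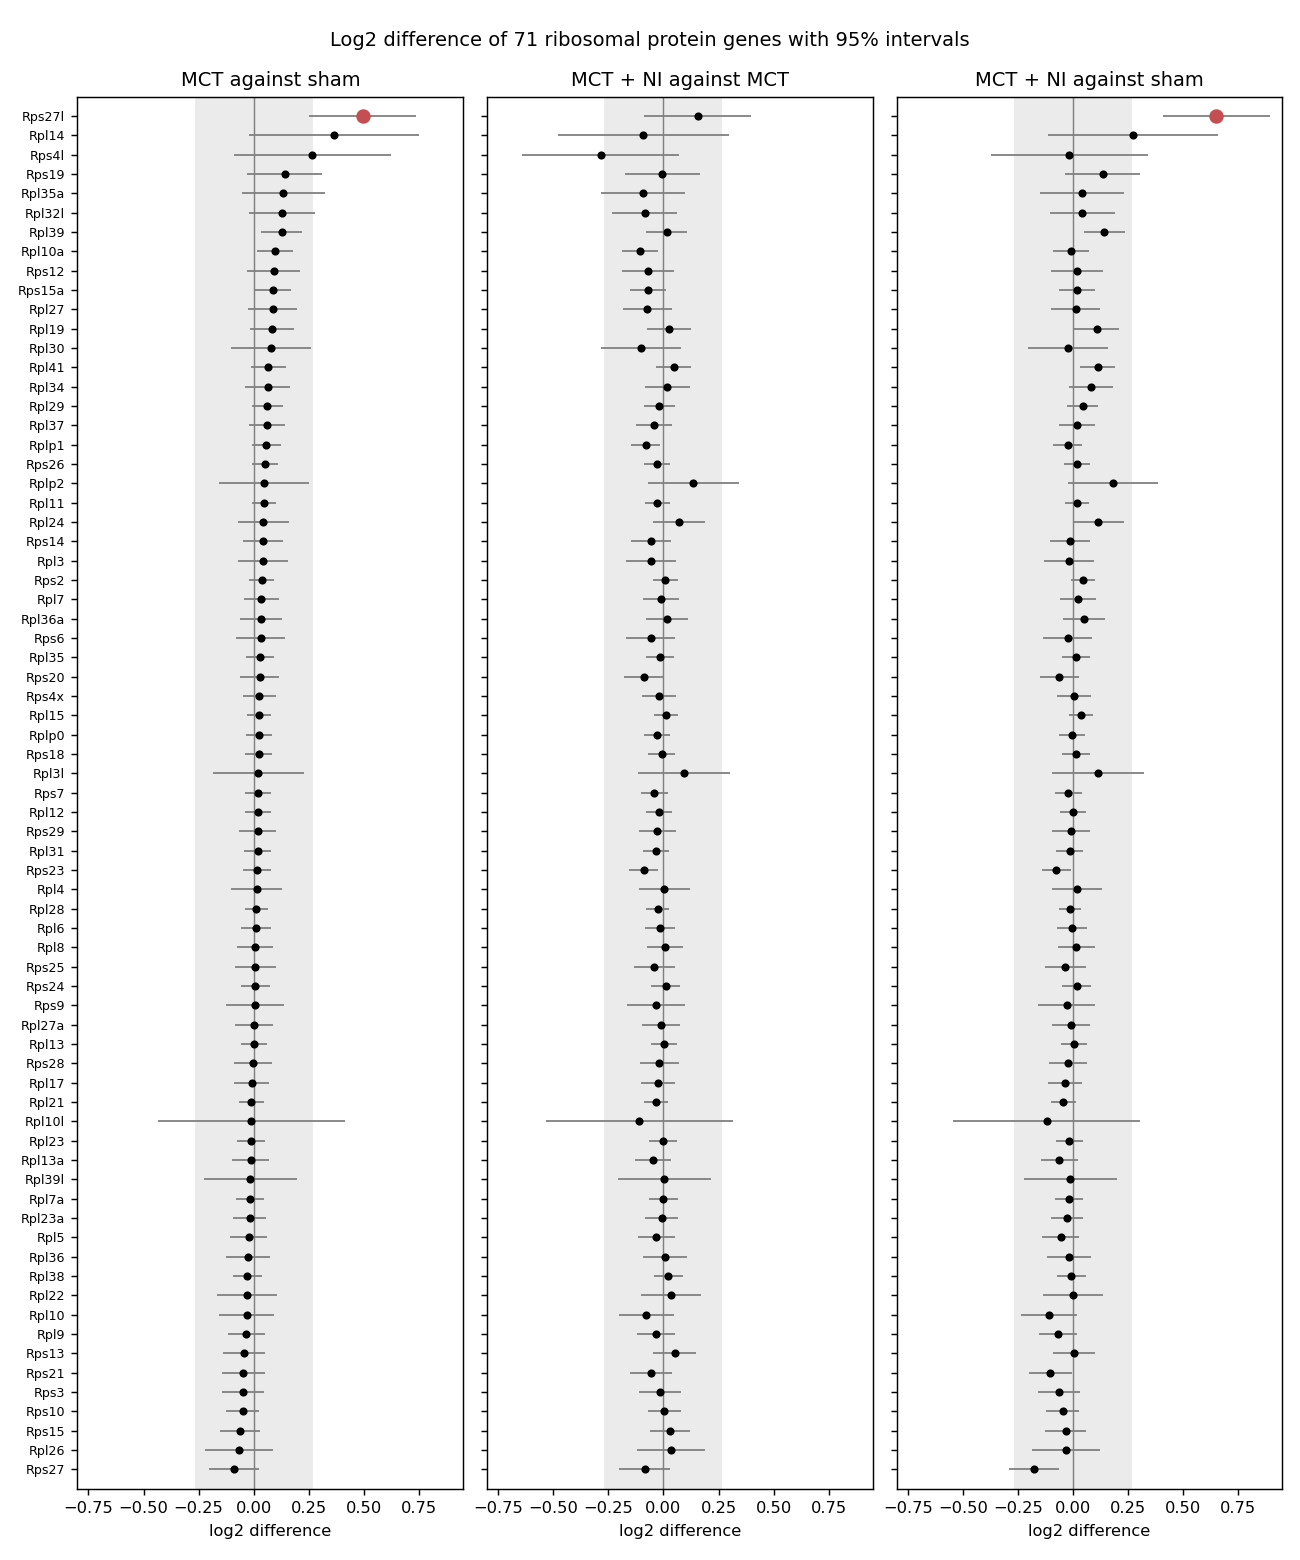
Log2 difference (horizontal axis) with its 95% interval for each of the 71 ribosomal protein genes (rows, ordered by the left panel), 1 panel for each comparison. Grey shading spans 1.2-fold either way and red dots have an adjusted p under 0.05, which is Rps27l at 0.49 for MCT and 0.65 for MCT + NI, each against sham; 64, 63 and 63 intervals, left to right, lie within the shading.

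The diet comparison asks what the nutritional intervention altered in mice that all received monocrotaline. In MCT + NI against MCT, 0 of 71 members passed an adjusted p under 0.05 in limma, as did 0% of all genes, the smallest adjusted p being 1. Without adjustment, 0 members were higher and 3 lower (Rps23, Rpl10a and Rplp1), beside 1.59% of all genes higher and 1.3% lower. The median log2 difference was -0.02 for the members and -0.0046 for all genes, with 24 members positive and 47 negative. The 95% interval lay within 1.2-fold in 63 of 71 members (88.7%), in 46.7% of all genes and in 83.6% of the 868 bright genes. For all but the 8 others, the interval of the probe set thus excludes a larger difference in signal between the diets. These intervals are read 1 gene at a time without adjustment. They give no joint bound over the members, and none on the mRNA of a gene apart from its copies.

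Among the members, small shifts downward were the more frequent ones. No member lay higher and 11 lay lower in all 3 MCT + NI mice than in all 3 MCT mice, where 3.11% of all genes lay higher and 2.96% lower. Of the 868 bright genes, 92 lay higher and 22 lower in this way. The 11 members were read on the same arrays and are not independent observations. These 11 were Rpl10a, Rps23, Rps20, Rps27, Rplp1, Rps15a, Rps14, Rps7, Rpl21, Rpl11 and Rpl28, with log2 differences between -0.11 and -0.03. When arrays were centred on their median, the member median moved to -0.01. Rps23, which sits at the decoding centre of the 40S subunit, had 11.20, 11.21 and 11.19 in MCT + NI mice, against 11.26, 11.27 and 11.34 in MCT mice. The groups did not overlap, though the difference was only -0.09 (95% interval -0.16 to -0.02, unadjusted p = 0.0123, adjusted p = 1 in limma). Rpl10a had 10.95, 11.02 and 11.03 in MCT + NI mice, against 11.08, 11.07 and 11.16 in MCT mice, a difference of -0.11, and the MCT + NI values lay around those of the sham mice. Rplp1, a protein of the stalk that recruits elongation factors, had a difference of -0.08 (unadjusted p = 0.0211, adjusted p = 1 in limma).

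Rps27l had 8.09, 8.07 and 8.34 in MCT + NI mice, against 7.95, 8.13 and 7.96 in MCT mice. The groups overlapped and the difference was 0.16 (95% interval -0.09 to 0.40, adjusted p = 1). The other positive differences near its size were those of Rplp2, the partner of Rplp1 in the stalk, at 0.14, and of Rpl3l at 0.09. Without MCT + NI mouse 619 the difference of Rps27l was 0.071, and that of Rpl3l ran from 0.0045 without MCT mouse 640 and 0.0213 without MCT + NI mouse 617 to 0.18 without MCT mouse 641, so no order is read from these values. The largest negative differences were those of Rps4l, at -0.28, of Rpl10l, at -0.11 and with a signal not shown to be above background, and of Rpl10a. The other probe set of Rps4l gave -0.05.

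In MCT + NI against sham, monocrotaline and diet differ at once. Again 1 of 71 members, Rps27l, passed the adjusted test as higher, against 6.26% of all genes (4.52% higher and 1.75% lower). It had 8.09, 8.07 and 8.34 in MCT + NI mice, against 7.30, 7.58 and 7.67 in sham mice. All MCT + NI mice were above all sham mice, and the difference was 0.65 (95% interval 0.41 to 0.89), a 1.57-fold signal, with an adjusted p of 0.00788 (n = 3 each). Leaving out any one of these 6 mice kept this call, with adjusted p-values between 0.0139 and 0.0345 and differences between 0.54 and 0.73, and it was lost only with the atrial marker mean as a covariate (0.59, adjusted p = 0.126). Smooth muscle and pericyte genes were also higher in these mice (8 of 12, list means 8.63 to 8.70 in MCT + NI mice and 8.21 to 8.26 in sham mice), as were 7 of 12 endothelial genes while 2 were lower (8.66 to 8.87 in MCT + NI mice and 8.43 to 8.61 in sham mice). Of 12 fibroblast genes, 4 were higher (8.40 to 8.72 in MCT + NI mice and 8.09 to 8.33 in sham mice), and of 14 macrophage genes 1 was higher and 2 lower (6.78 to 7.14 in MCT + NI mice and 6.64 to 6.88 in sham mice). The part of these markers was not tested.

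Without adjustment, 4 members were higher in MCT + NI against sham (Rps27l, Rpl39, Rpl41 and Rpl19) and 3 lower (Rps27, Rps23 and Rps21), beside 10.2% of all genes higher and 9.37% lower. The median difference was -0.01 for the members and -0.02 for all genes. It was -0.0588 for the members with arrays centred on their median and 0.0064 without MCT + NI mouse 615, so no direction is read from it. In 58 of 71 members (81.7%) the difference lay within 0.1 of 0, as in 51.1% of all genes and 62% of the 868 bright genes. With no overlap between the groups, 5 members lay higher and 7 lower, where 10.7% of all genes lay higher and 10.3% lower.

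Rps27 and Rps27l had differences of opposite sign here, of which that of Rps27 did not pass. Rps27 had 9.71, 9.78 and 9.68 in MCT + NI mice, against 9.96, 9.94 and 9.79 in sham mice. All MCT + NI mice were below all sham mice, and the difference of -0.18 (95% interval -0.29 to -0.06), a 0.885-fold signal, had an adjusted p of 0.0806. The other probe set of Rps27 gave -0.20. Rps27 passed the threshold when sham mouse 625, its lowest sham value, was left out. Within a mouse, Rps27l minus Rps27 was -1.62, -1.71 and -1.34 in MCT + NI mice, against -2.66, -2.36 and -2.12 in sham mice, a shift of 0.83 without overlap (exact two-sided permutation p = 0.1). Against the MCT mice the shift was 0.24 (exact permutation p = 0.2). These tests were not planned, and most of the 0.83 is the Rps27l difference of 0.65 already given.

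**Figure D5:**
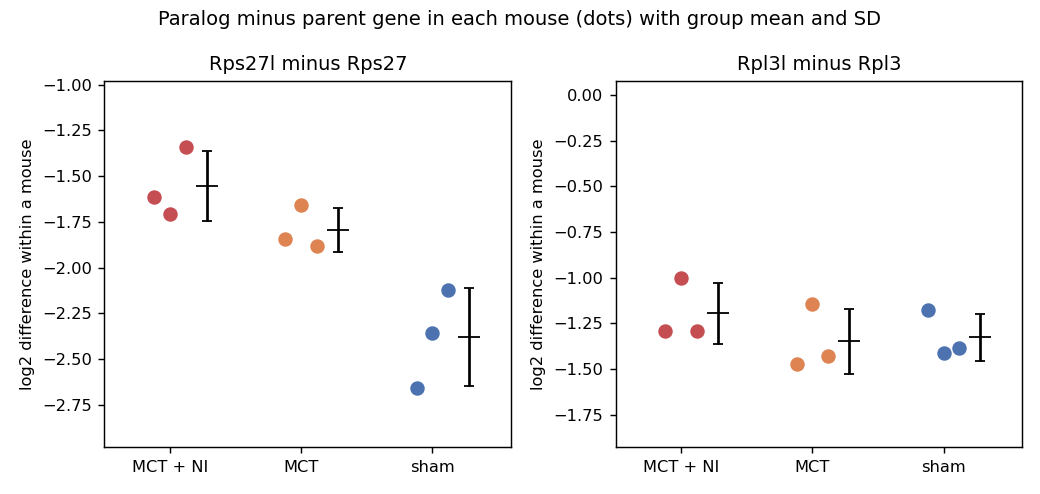
Log2 value of the paralog minus that of its parent gene within each mouse (vertical axis, both panels spanning the same range) for Rps27l with Rps27 and Rpl3l with Rpl3, in MCT + NI, MCT and sham mice, with the group mean and SD in black (n = 3). Rps27l minus Rps27 is higher in all MCT + NI and MCT mice than in any sham mouse, while the groups overlap for Rpl3l minus Rpl3.

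Rpl39 had 9.22, 9.28 and 9.24 in MCT + NI mice, against 9.18, 9.05 and 9.08 in sham mice. These did not overlap, and the difference of 0.14 (95% interval 0.05 to 0.23) had an adjusted p of 0.0885. Rpl41, a very short protein between the subunits, had 10.69, 10.77 and 10.66 in MCT + NI mice, against 10.62, 10.60 and 10.57 in sham mice, also without overlap. Its difference was 0.11 (95% interval 0.03 to 0.19) with an adjusted p of 0.108. Both genes were close to the threshold: Rpl39 passed without sham mouse 620, and when every probe set of a single gene was tested as a feature of its own, 1 of 2 probe sets of Rpl39 and 1 of 5 of Rpl41 passed, with differences of 0.15 each. Rps21 and Rps23 had differences of -0.10 and -0.08 with adjusted p-values of 0.228 and 0.189, and Rpl19 had 0.11 with 0.229. Rpl41, Rpl19, Rps21, Rps23 and Rplp1 are named because of their values. The largest and smallest differences of this comparison, apart from Rps27l and Rps27, were those of Rpl14 at 0.27 and Rplp2 at 0.18, and of Rpl10l at -0.12 and Rpl10 at -0.11, and their intervals all included 0.

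For Rpl3l, the striated muscle form of Rpl3, no shift was detectable with these arrays. It had 8.85, 9.06 and 8.85 in MCT + NI mice, 8.65, 9.0 and 8.83 in MCT mice, and 8.87, 8.75 and 8.79 in sham mice. The 3 groups overlapped, and the largest difference was 0.114, in MCT + NI against sham. Adjusted p-values in limma were 0.932 for MCT against sham, 1 for the diet comparison and 0.558 for MCT + NI against sham. Its intervals ran from -0.19 to 0.23, from -0.11 to 0.30 and from -0.09 to 0.32. Rpl3, whose protein reaches towards the site of peptide bond formation, had 10.14, 10.07 and 10.14 in MCT + NI mice, 10.12, 10.14 and 10.26 in MCT mice, and 10.05, 10.16 and 10.18 in sham mice. Rpl3l minus Rpl3 shifted by -0.02 in MCT against sham (exact permutation p = 0.7), by 0.15 in MCT + NI against MCT (p = 0.4, exact) and by 0.13 in MCT + NI against sham (p = 0.4, exact). These shifts rest on single mice: with 1 mouse left out, the first changed sign, the second ran from 0.056 (without MCT + NI mouse 617) to 0.254 (without MCT mouse 641) and the third from 0.0341 (without MCT + NI mouse 617) to 0.204 (without sham mouse 620). The third was 0.024 with the atrial covariate.

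For the testis paralogs Rpl39l and Rpl10l nothing can be read beside Rpl39 and Rpl10, the protein that completes the 60S subunit late in its assembly: their probe sets had means of 3.25 and 2.82, at percentiles 20.2 and 12.2 of all genes, and were not shown to be above background. Rps4l minus Rps4x shifted by 0.24 in MCT mice relative to sham mice (exact permutation p = 0.3) and by -0.26 in MCT + NI mice relative to MCT mice (exact permutation p = 0.2). The other probe set of Rps4l, not used here, had smaller differences, of 0.10 and -0.05. Rpl7l1, a paralog of Rpl7 outside the naming rule that works in ribosome assembly, shifted against Rpl7 by 0.10 in MCT + NI mice (exact permutation p = 0.2) and by 0.08 in MCT mice (exact permutation p = 0.3), both relative to sham mice. Rpl22 and Rpl36a, whose paralogs Rpl22l1 and Rpl36al had no probe set of their own, differed by -0.03 and 0.03 in MCT against sham. The groups overlapped in both of these pairs, and with 3 mice a group no pair could have passed an exact test at 0.05. Rps2, Rpl21 and Rpl28, named by the rule on overall signal, had differences of 0.04, -0.01 and 0.01 in MCT against sham.

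A limit of all these values lies in the copies of the genes. Ribosomal protein genes have left many near-identical processed pseudogenes in the mouse genome, and the annotation assigned 376 probe sets to the 71 members, 54 of which had more than 1. Rpl21 alone had 41, Rpl29 24, Rps2 18 and Rpl17 and Rpl7a 17 each. Signal from a gene and its copies cannot be told apart by such probes. Probe sets of one gene mostly gave close values: the 41 of Rpl21 ran from -0.04 to 0.02 in MCT against sham, the 24 of Rpl29 from 0.03 to 0.08 and the 6 of Rpl3 from -0.02 to 0.04. The widest range was that of the 8 of Rpl12, a 60S protein of the stalk base, from -0.05 to 0.28 in MCT + NI against MCT. With all 376 tested separately, 1 passed in MCT against sham, 0 in the diet comparison and 3 in MCT + NI against sham. Rps27l had 1 probe set.

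Genes that work with the module were read in the same fit. The counts of these lists stand beside 4.65% of all genes higher and 1.61% lower in MCT against sham. Of 21 translation factors and other TOP mRNAs, 1 rose and 0 fell in MCT against sham, which was Pabpc1, the cytoplasmic poly(A)-binding protein, at 0.46 (adjusted p = 0.000478), and it rose by 0.40 in MCT + NI against sham (adjusted p = 0.000818). The list median was -0.01, and Eif4b, a helper of the initiation helicase, had -0.19 (adjusted p = 0.131), Eef1d, a subunit of the elongation exchange factor, -0.14 (0.151) and Eif4a2, an initiation helicase, -0.13 (0.232). Eef1a2, the elongation factor of muscle, had -0.06 (adjusted p = 0.426). Ribosomal proteins and paralogs outside the naming rule gave 0 calls among 3 genes (0 also at an unadjusted p under 0.05), with Rpsa at 0.07, Fau at -0.02 and Rpl7l1 at 0.11. The snoRNA host transcripts Gas5, Snhg5 and Taf1d had 0.07, 0.12 and -0.14, and 0 of 3 passed with or without adjustment.

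Of 14 genes of RNA polymerase I transcription, which makes the ribosomal RNA, 0 passed in MCT against sham in limma, with or without adjustment, with Polr1b at 0.10, Cd3eap and Twistnb at 0.13 each and the initiation factor Rrn3 at -0.07. Of 53 ribosome assembly factors, 1 rose and 0 fell, namely Ddx21, a nucleolar RNA helicase, at 0.29 (adjusted p = 0.0361), with a list median of 0.06. Nop58 and Nop56, core proteins of the particles that guide ribosomal RNA methylation, had 0.40 (adjusted p = 0.072) and 0.17 (0.124), and Heatr1, of the complex that processes the ribosomal RNA precursor, had 0.28 (0.0806). In MCT + NI against sham, 0 of the 53 passed, while 6 were higher and 1 lower at an unadjusted p under 0.05 in limma.

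Of 36 genes of mTOR complex 1, its inputs and its outputs, 3 rose and 1 fell in MCT against sham. Over all genes, 4.65% rose and 1.61% fell at the same threshold. Sesn2, a leucine sensor that restrains the complex, rose by 1.48 (adjusted p = 0.000543), Slc7a5, a leucine transporter, by 0.72 (adjusted p = 0.00278) and Mycn, a transcription factor of growth, by 1.67 (adjusted p = 0.00485). Deptor, an inhibitor within the complex, fell by 0.40 (adjusted p = 0.037). Sesn2 is also among the p53 targets given under other observations, so its call is counted in both lists. The list median was -0.03. In MCT + NI against sham the counts were likewise 3 and 1, beside 4.52% of all genes higher and 1.75% lower. In MCT + NI against MCT, where the diets differ in leucine, 0 of 36 passed (1 higher and 0 lower without adjustment), with Sesn2 at -0.01, Slc7a5 at 0.05, Mycn at 0.00 and Deptor at -0.09.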

How the data were processed

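RNA from the right ventricle of 9 mice was hybridised to Affymetrix mouse gene 1.1 ST arrays (100 ng per mouse). The labels name an RNeasy kit and 2 weeks of diet before the injections, and the study's methods name trizol and another lead time. The authors deposited log2 expression values after robust multi-array averaging (RMA); the version is not given in the sources used here. According to the methods probe sets were regrouped by gene, whereas the deposited table holds 35556 rows in the maker's numbering, of which 21218 had 1 gene in the platform annotation, 1881 several and 12457 none. No further normalization was applied. One model with a mean per group was fitted over 18820 genes and all 9 mice with limma 3.58.1 (lmFit, eBayes with an intensity trend) in R 4.3.3, two-sided, with Benjamini-Hochberg adjustment and a threshold of 0.05, after a test on simulated data. Differences within a mouse were compared by exact permutation, a test planned for Rpl3l minus Rpl3 and not for the other pairs. Each group holds 3 arrays, which limits the precision, and p-values measure the spread between these mice. Named genes were the paralog pairs, members passing the test, the 3 largest and smallest differences of each comparison, the 3 brightest and dimmest members, and up to 4 genes of each list with the smallest p in MCT against sham; others are marked in the text. The members and lists were chosen with earlier results of these data known. Alternatives were averaged probe sets for each gene, no intensity trend, only the mice of the groups compared, only brighter genes, arrays centred on their median, array weights, each mouse left out, MCT mouse 644 and MCT + NI mouse 615 left out together, an atrial covariate, an unadjusted threshold and, added after seeing the data, every probe set as a feature. RefSeq promoter windows were read with Python 3.11.15.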

Additional observations from a re-analysis of the deposited data

How the results depend on the processing

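Rps27l was called in MCT against sham in 7 of 15 alternatives and in MCT + NI against sham in 14 of 15, and its direction did not turn in any. The number of members called in MCT against sham was 0 with only the 6 mice of these groups, without MCT mouse 644 and MCT + NI mouse 615, and with the atrial covariate, 4 at an unadjusted threshold, and 0 to 1 with a mouse left out, the single call being Rpl39 without sham mouse 620 and Rpl14 without sham mouse 624. In MCT + NI against sham it was 0 with the atrial covariate, 7 unadjusted, 3 with every probe set as a feature, and 1 to 2 with a mouse left out; in MCT + NI against MCT it was 3 unadjusted and 0 otherwise. With arrays centred on their median, the member median was -0.0445 in MCT against sham, -0.0066 in MCT + NI against MCT and -0.0588 in MCT + NI against sham, and Rpl3 had -0.022 and Rpl3l -0.0438 in MCT against sham. With a mouse left out, the member median ran from 0.00867 to 0.0255 in MCT against sham, from -0.025 to -0.0141 in the diet comparison and from -0.0134 to 0.00638 in MCT + NI against sham, where it was also 0.00638 without mice 644 and 615. Values near 0 changed sign: with a mouse left out, Rpl3l minus Rpl3 ran from -0.124 to 0.0522, Rpl3l from -0.0658 to 0.109 and Rpl3 from -4.43e-05 to 0.0691 in MCT against sham, and Rpl3 from -0.0573 to 0.00829 in MCT + NI against sham. Without mice 644 and 615, Rpl3l minus Rpl3 was 0.0183 and Rpl3 -4.43e-05 in MCT against sham, and with the atrial covariate Rpl3 was 0.0714 in MCT + NI against sham. The cause of these changes was not tested. No paired analysis was possible because the mice carry separate numbers. With 3 arrays per group, a single mouse decides the calls at the threshold.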

Other observations

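Rps27l is known as a target of p53, and a list of 17 other such targets was written after its values had been seen. Of these, 14 were measured, 11 were higher in MCT against sham at an adjusted p under 0.05 in limma and 0 were lower, 0 passed in MCT + NI against MCT, and 10 were higher in MCT + NI against sham. Cdkn1a, which arrests the cell cycle, had a log2 difference of 3.45 (adjusted p = 7.08e-06) in MCT against sham, and Phlda3 1.56, Eda2r 2.04 and Zmat3 1.76, so that the 0.49 of Rps27l was smaller than each of these. Mdm2, the ligase that limits p53, had 0.28 (adjusted p = 0.00978). Bbc3, Ccng1 and Fas did not pass, at 0.28, 0.01 and 0.07. The list was chosen with these data in view and carries no test of its own.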
